A study of Mus musculus with 5 samples.

Results

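The transcripts described are those of 10 genes that mark T cells of the epidermis: Cd3d, Cd3e, Cd3g, Cd247, Trdc, Thy1, Lck, Cd2, Gzmb and Nkg7. They were taken by symbol from a table of 27179 genes measured in Langerhans cells, which are phagocytes that live in the epidermis, and all 10 were found. The cells were purified from skin of C57BL/6 mice, 1 week old, that were Suz12 cKO (3 libraries, a conditional knockout of Suz12, a core subunit of Polycomb repressive complex 2) or wild type (2 libraries, abbreviated WT). Each library came from 5000 cells, and the design text calls the libraries biological replicates. The driver of the deletion and the markers used to purify the cells are not given in the labels. One label field names alveolar macrophages as the source, whereas titles, tissue and protocol name Langerhans cells of skin.

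The epidermis of mice holds, besides keratinocytes and Langerhans cells, a network of dendritic epidermal T cells. These cells settle in the skin before birth and carry a gamma delta T cell receptor of almost invariant sequence. At the surface, the chains of a T cell receptor are held by CD3 chains and the zeta chain. Their cytoplasmic tails are phosphorylated by the kinase Lck when the receptor binds. Thy1 is a surface glycoprotein by which epidermal T cells of mice are classically stained, and Cd2 is an adhesion receptor of T and NK cells. Gzmb encodes granzyme B and Nkg7 a membrane protein of cytotoxic granules.

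Depth was 12090062 to 25725900 assigned counts in cKO and 17041996 to 18656968 in WT, and a count of 0 allows a level of up to 0.106 to 0.258 CPM, depending on the library (3 counts, counting error only). CPM are counts per 1000000 after TMM scaling for library composition. Of 6359 tested genes averaging 10 CPM or more, 82.7% had a count in every library. A 0 in some library was thus also found among other genes of that level, and it need not mean a level under this floor. Suz12 lay at 0, 0 and 0.601 CPM in cKO and at 4.66 and 2.30 CPM in WT. The defining markers of Langerhans cells were abundant: all 12 listed genes had counts in every library, and they summed to 111419 to 117520 CPM in cKO and to 101160 and 122779 CPM in WT. The p-values below take their error from the spread among these 5 libraries. In edgeR each gene's spread is drawn toward a trend over all tested genes, so it is not that gene's own spread alone.

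T cell transcripts were present in every library, at a low share of the counts. The 10 genes together took 0.0847%, 0.0314% and 0.0241% of the counts in cKO replicates 1 to 3 and 0.0738% and 0.0531% in WT replicates 1 and 2. On the CPM scale they summed to 921, 286 and 249.8 in cKO and to 728 and 533 in WT. cKO replicate 1 lay above both WT libraries, and cKO replicates 2 and 3 lay below both. The groups therefore overlapped, with means of 486 ± 377 CPM in cKO and 631 ± 138 CPM in WT (SD, n = 3 and n = 2), a log2 ratio of -0.38. In bulk libraries, fewer T cells and less RNA per T cell cannot be told apart, and which cells held these transcripts was not tested.

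The order of the libraries depended on what the sum was set against. Per 1000 counts of Cd207, which encodes langerin, the defining lectin of Langerhans cells, the 10 genes had 63.1, 43.1 and 29.8 counts in cKO and 96.0 and 71.9 counts in WT. On this scale all 3 cKO libraries lay below both WT libraries. Cd207 itself lay at 14597, 6639 and 8393 CPM in cKO and at 7584 and 7417 CPM in WT, so it was highest in cKO replicate 1. Against the 12 Langerhans cell genes together, the sum came to 7.84, 2.47 and 2.24 per 1000 counts in cKO and to 5.93 and 5.27 in WT. There the groups overlapped again, with cKO replicate 1 highest.

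**Figure D1:**
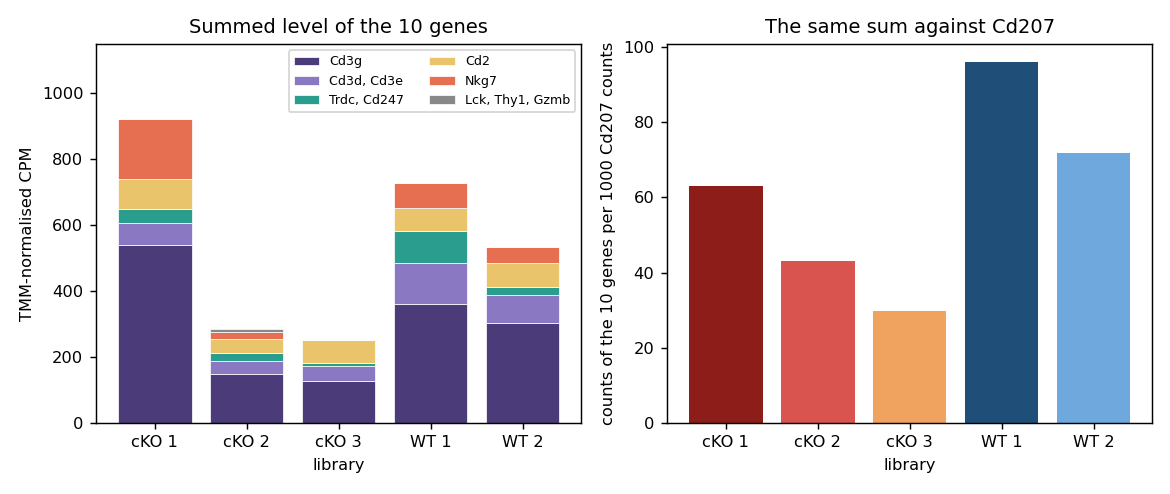
Left, summed TMM-normalised CPM of the 10 T cell genes in each library, stacked by gene; right, counts of the 10 genes per 1000 counts of Cd207. In CPM, cKO replicate 1 is the highest library at 921, whereas against Cd207 the 3 cKO libraries (29.8 to 63.1) lie below both WT libraries (71.9 and 96.0).

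The CD3 chains made up most of the signal, and Cd3g the largest part, between 49.5% and 58.6% of the sum in each library. Cd3g (chromosome 9, 44969572 to 44980431, mm10) encodes the gamma chain, one of the chains that pair with epsilon. It lay at 539.9, 149.0 and 125.6 CPM in cKO and at 360.3 and 303.6 CPM in WT. Its cKO libraries lay on both sides of the WT libraries, and its log2 fold change was -0.29, standard error 0.65 (edgeR adjusted p = 0.999).

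Cd3d (chromosome 9, 44981769 to 44987052), the delta chain, was the only one of the 10 genes whose groups did not overlap in either direction, as the groups of 19.0% of all tested genes did not. It lay at 41.8, 21.8 and 35.2 CPM in cKO and at 105.8 and 67.6 CPM in WT. All 3 cKO libraries lay below both WT libraries, as they did for 10.2% of all tested genes. The means were 32.9 ± 10.2 CPM in cKO and 86.7 ± 27.0 CPM in WT (SD, n = 3 and n = 2). The log2 fold change was -1.40, standard error 0.57, with an unadjusted edgeR p of 0.0436 that did not pass over all genes (adjusted p = 0.968). At an unadjusted p under 0.05 stood 4.15% of the tested genes.

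Cd3e (chromosome 9, 44998735 to 45009663), the epsilon chain, which every CD3 dimer contains, had the lowest level per kilobase of the 3 in every library. It lay at 24.8, 15.7 and 11.6 CPM in cKO and at 17.7 and 17.2 CPM in WT. The WT values lay between those of cKO, and the log2 fold change was -0.01, standard error 1.25 (edgeR adjusted p = 0.999).

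Levels of the 3 CD3 genes differed from each other. Per kilobase of gene length, the level of Cd3g was 16.8, 8.90 and 4.64 times that of Cd3d in cKO and 4.43 and 5.84 times in WT. Against Cd3e the same ratio was 30.6, 13.3 and 15.2 in cKO and 28.6 and 24.8 in WT. Cd3g was thus the most abundant of the 3 per length in every library, but the ratios were not fixed from library to library. In the GENCODE transcripts, 0% of the windows of 75 bases, the read length, in Cd3g and in Cd3d occur unchanged in another gene's transcript. For Cd3e the share is 4.47%, all with the gene model Gm48719.

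Cd3g and Cd3d are transcribed away from each other from start sites 1355 bases apart. The 250 bases before each start are shown because these neighbours differed in level in all 5 libraries. For Cd3d the start site used is 44981786, so the window's last bases, with the closing TTCC, lie inside the gene coordinates given above. Sequences are from RefSeq (GRCm38.p6), written 5′ to 3′ on the strand of the gene, and capitals mark GGAA, the core of sites for Ets factors, on either strand.
Cd3g (chr9:44980432-44980681, minus strand): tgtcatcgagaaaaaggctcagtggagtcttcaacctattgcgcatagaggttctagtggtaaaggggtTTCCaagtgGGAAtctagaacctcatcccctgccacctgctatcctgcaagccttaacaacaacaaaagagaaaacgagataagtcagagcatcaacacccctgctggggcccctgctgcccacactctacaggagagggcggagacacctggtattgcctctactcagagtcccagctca
Cd3d (chr9:44981536-44981785, plus strand): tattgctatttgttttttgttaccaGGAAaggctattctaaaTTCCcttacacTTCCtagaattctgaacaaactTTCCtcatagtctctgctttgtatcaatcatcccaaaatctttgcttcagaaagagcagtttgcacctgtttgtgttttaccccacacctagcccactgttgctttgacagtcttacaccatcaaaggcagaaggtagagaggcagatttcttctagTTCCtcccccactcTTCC
The Cd3g window held 2 matches of GGAA and the Cd3d window 6, against a median of 3 over 32851 promoter windows of the same length, 93.4% of which hold at least 1. E boxes (CANNTG, both strands) matched 3 times before Cd3g and 1 time before Cd3d, and 66.2% of all windows hold one. TATAAA (both strands) matched in neither, and 12.4% of all windows hold it. A match is a run of letters and not a measured site.

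Cd247 (chromosome 1, 165779952 to 165871153), the zeta chain, was found in 1 library of each genotype. It had 231 counts in cKO replicate 2, or 8.18 CPM (95% exact Poisson interval 7.16 to 9.30), and no count in the other cKO libraries. In WT it had 32 counts in replicate 1, or 1.69 CPM (1.16 to 2.39), and none in replicate 2. The library with the most Cd247, cKO replicate 2, was among the lowest for Cd3g. The log2 fold change was 1.68, standard error 3.73 (edgeR adjusted p = 0.999), and it was 0.73 without WT replicate 2 and 8.64 without WT replicate 1, where no WT count is left and the value is no measure of size. Cd247 overlaps Pou2f1, a gene on the opposite strand, whose transcripts contain 77.6% of the read-length windows of the longest Cd247 transcript. Pou2f1 lay at 25.3, 3.29 and 2.23 CPM in cKO and at 0 and 15.4 CPM in WT. Since the use of strand in counting is not given, values of Cd247 are uncertain.

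**Figure D2:**
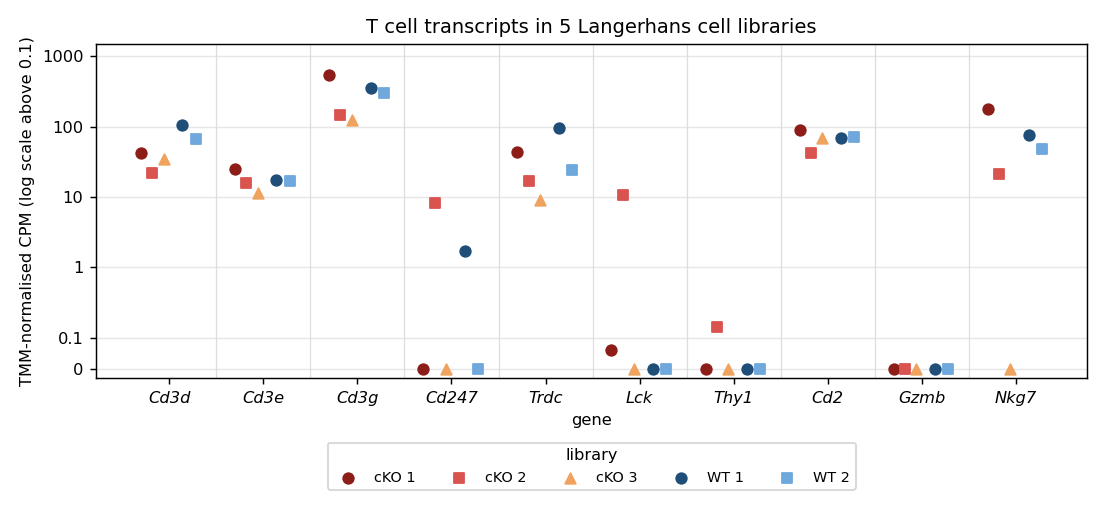
TMM-normalised CPM of the 10 T cell genes in each library, on an axis that is logarithmic above 0.1 and linear below, with cKO libraries left of WT libraries for each gene. Cd3g lies at 125.6 to 539.9 CPM, not corrected for gene length, only Cd3d has separate groups, and Cd247, Lck, Thy1 and Gzmb are at 0 in most libraries.

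Trdc, the constant region of the receptor's delta chain, was found in every library. The gene (chromosome 14, 54142851 to 54146108) had 703, 471 and 107 counts in cKO and 1818 and 407 counts in WT. These are 44.0, 16.7 and 9.19 CPM in cKO and 96.2 and 24.0 CPM in WT. Replicate 1 of each genotype lay highest within its group, and cKO replicate 1 lay above WT replicate 2, so the groups overlapped. The log2 fold change was -1.37, standard error 0.96 (edgeR adjusted p = 0.999), and it was -0.04 without WT replicate 1.

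The other receptor gene segments show which V and J genes were counted. The joined receptor of an epidermal T cell is encoded by a variable (V), a joining (J) and a constant (C) segment, and for the delta chain a short diversity segment too. Shares here are over the 5 libraries together. Of 7 gamma V genes, 2 had counts, and Trgv5 held 89.3% of them. The other was Trgv2, with 114 counts, all in WT replicate 1, where Trgv5 had 354 counts. Of 5 delta V genes, 2 had counts, and Trdv4 held 99.0%. The other was Trdv5, with 13 counts, all in WT replicate 2. Among gamma J genes Trgj1 held 93.4% of the counts, and among delta J genes Trdj2 held 95.5%. Trgv5 and Trdv4 encode the V regions of the receptor for which dendritic epidermal T cells are known. Trgv6, used by T cells of other epithelia and of the dermis, had no count.

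The ends at which these segments are joined are shown because they are the receptor's germline parts around the joint. Sequences are from the GENCODE annotation on GRCm38, plus strand, 5′ to 3′: the last 60 bases of both V segments and both J segments whole. Capitals mark TACTACTGT at the end of each V segment, which encodes the conserved tyrosines and cysteine before the joint, and in each J segment the stretch that opens with the conserved phenylalanine codon TTT.
Trgv5 (chr13:19192666-19192725): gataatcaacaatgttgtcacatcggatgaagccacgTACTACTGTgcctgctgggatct
Trgj1 (chr13:19210343-19210402): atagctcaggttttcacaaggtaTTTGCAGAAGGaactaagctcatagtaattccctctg
Trdv4 (chr14:54075456-54075515): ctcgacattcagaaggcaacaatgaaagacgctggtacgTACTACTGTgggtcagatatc
Trdj2 (chr14:54136779-54136837): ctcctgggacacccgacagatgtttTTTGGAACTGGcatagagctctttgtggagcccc
The table counts reads per segment and does not hold the joined sequences.

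The leading gamma and delta segments had different orders of libraries. Trgv5 lay at 2.315, 5.70 and 18.5 CPM in cKO and at 18.7 and 10.55 CPM in WT. Trgc1, the gamma constant region, lay at 14.6, 10.3 and 23.7 CPM in cKO and at 34.7 and 11.4 CPM in WT. Trdv4 lay at 14.02, 7.505 and 1.63 CPM in cKO and at 35.5 and 13.3 CPM in WT. cKO replicate 3 was thus the highest cKO library for Trgv5, Trgj1 and Trgc1 and the lowest for Trdv4, Trdj2 and Trdc. The places of the J genes rest on few counts in cKO: 11, 16 and 15 for Trgj1 and 12, 9 and 2 for Trdj2. Not all gamma genes had this order. Trgc3, another gamma constant region, lay at 1.69, 1.63 and 1.20 CPM in cKO, with replicate 3 lowest. Trgc2 lay at 0.313, 0.354 and 0.515 CPM in cKO, with replicate 3 highest, on 5, 10 and 6 counts. WT replicate 1 was the highest of all 5 libraries for Trgc1, Trdv4 and Trdc, and about level with cKO replicate 3 for Trgv5. Of the read-length windows of Trgc1, 17.6% are shared with other genes, mostly Trgc3, and for Trgv5 and Trdv4 the share is 0%.

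Constant regions of the alpha and beta chains, which form the receptor of alpha beta T cells, were found too, in fewer libraries. Trac had 228, 0 and 0 counts in cKO and 4 and 0 counts in WT. Trbc1 and Trbc2, which share 35.1% and 37.7% of their read-length windows with each other, had 263, 107 and 0 counts together in cKO and 159 and 850 counts in WT. Gamma and delta constant regions made up 66.35%, 88.4% and 100% of all receptor constant region counts in cKO and 94.0% and 42.8% in WT. These are shares of counts and not of cells. None of 24 beta V genes had a count. Beta D genes had 39 counts, all in WT replicate 2, and beta J genes had 23 counts, 12 of them in WT replicate 2. Alpha V genes had 88 counts, all in cKO replicate 2 and 86 of them from Trav13-5. Cd28, the costimulatory receptor of T cells, had 355 counts in cKO replicate 2 and none elsewhere. Among coreceptors, Cd8b1 had no count in any library, Cd8a had 8 counts in WT replicate 2 and none elsewhere, and Cd4 was at 22.7 CPM in cKO replicate 2 and at or under 1 count elsewhere.

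**Figure D3:**
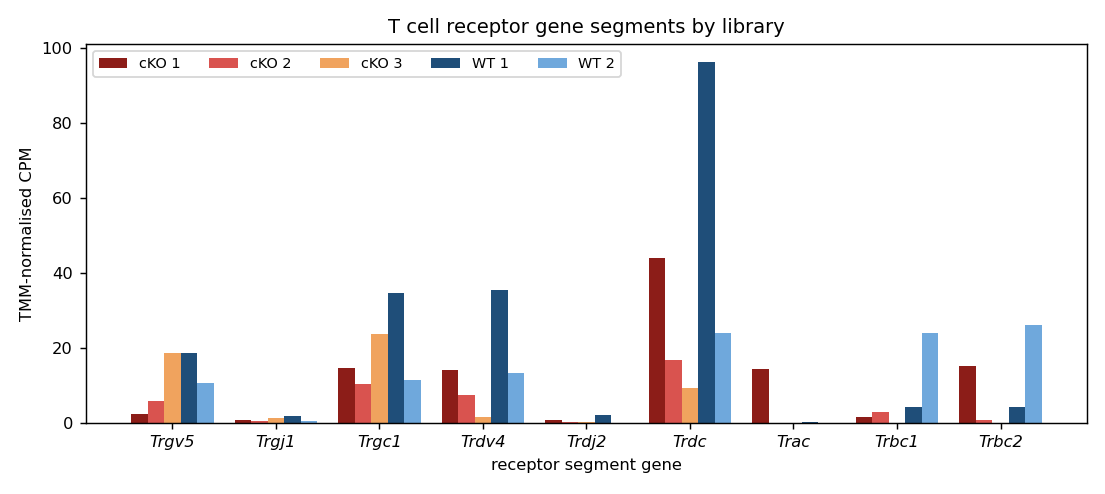
TMM-normalised CPM of the leading T cell receptor segment genes of the gamma (Trgv5, Trgj1, Trgc1), delta (Trdv4, Trdj2, Trdc), alpha (Trac) and beta (Trbc1, Trbc2) loci in each library. Trdc reaches 96.2 CPM in WT replicate 1, and cKO replicate 3 is the highest cKO library for the 3 gamma genes plotted and the lowest for the 3 delta genes. Trgj1 and Trdj2 had at most 16 counts in any cKO library.

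Lck was found almost wholly in 1 library, and Thy1 was near 0 in all 5. Lck (chromosome 4, 129548344 to 129573641) had 1, 303 and 0 counts in cKO and none in WT. The 303 counts of cKO replicate 2 are 10.7 CPM (95% exact Poisson interval 9.55 to 12.0). With the floor of each WT library set at 3 counts, the cKO mean of 3.596 CPM was at least 21.4-fold higher than WT. This bound rests on cKO replicate 2 and covers counting error only. Thy1 (chromosome 9, 44043384 to 44048579) had 4 counts, all in cKO replicate 2, or 0.142 CPM (0.0386 to 0.363). No Thy1 count was found in the libraries with the most Cd3g and Trdc.

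Cd2 (chromosome 3, 101275908 to 101287939) varied little across libraries, as Cd3e did. It lay at 89.4, 42.7 and 68.3 CPM in cKO and at 69.2 and 72.5 CPM in WT. WT values lay inside the range of cKO, and the log2 fold change was -0.09, standard error 0.51 (edgeR adjusted p = 0.999). Its highest library was 2.10 times its lowest, against 2.14 times for Cd3e, 4.86 times for Cd3d and 10.5 times for Trdc.

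The cytotoxic genes were split between presence and absence. Nkg7 (chromosome 7, 43437138 to 43438246) lay at 181, 21.2 and 0 CPM in cKO and at 77.5 and 48.0 CPM in WT. It was highest in cKO replicate 1 and had no count in cKO replicate 3, where 3 counts would be 0.258 CPM. Its log2 fold change was 0.10, standard error 1.97 (edgeR adjusted p = 0.999). Without cKO replicate 1 this became -2.52, and without WT replicate 2 it was -0.22. Gzmb (chromosome 14, 56258836 to 56262334) had no count in any of the 5 libraries, which allows up to 0.106 to 0.258 CPM by counting error alone.

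Whether the genes went up and down together can be seen in the order of the libraries for the 6 genes averaging 5 CPM or more: Cd3d, Cd3e, Cd3g, Trdc, Cd2 and Nkg7. With 5 libraries no correlation is given. The order was the same for Cd3e, Cd3g and Nkg7, with cKO replicate 1 highest, then WT replicate 1, WT replicate 2, cKO replicate 2 and cKO replicate 3. For Trdc replicate 1 of WT came before replicate 1 of cKO, and the rest of the order was the same. Cd3d had both WT libraries on top, and Cd2 had cKO replicate 1 and then WT replicate 2. In all 6 genes the lowest places were taken by cKO replicates 2 and 3. The same was true of 9.86% of 6359 tested genes averaging 10 CPM or more, so this pattern is also found outside T cell genes. Cd247, Lck and Thy1 departed from it, with their highest value in cKO replicate 2. Some places of Cd2 and Cd3e lay within counting error. The exact Poisson interval of Cd2 was 63.59 to 73.17 CPM in cKO replicate 3 and 65.52 to 73.08 in WT replicate 1. That of Cd3e was 14.26 to 17.21 CPM in cKO replicate 2. In WT replicates 1 and 2 it was 15.83 to 19.68 and 15.3 to 19.31 CPM. The shared order is therefore less certain for Cd3e.

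**Figure D4:**
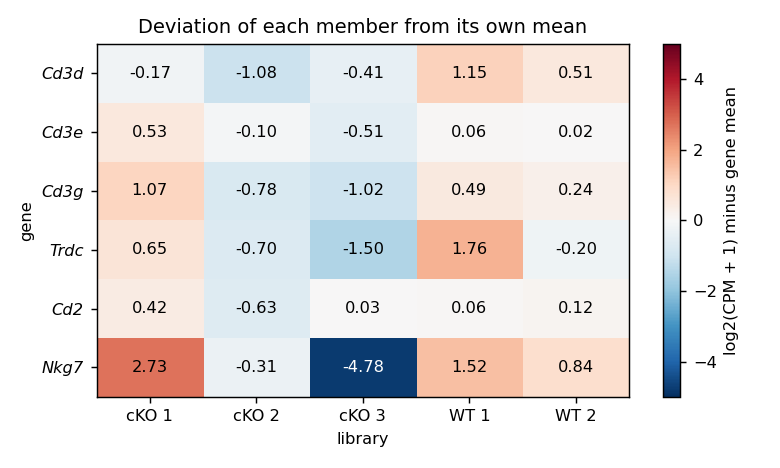
Heat map of log2(CPM + 1) minus the mean of the gene over the 5 libraries, for the 6 genes averaging 5 CPM or more. In each row the lowest values are those of cKO replicates 2 and 3, and the widest range is that of Nkg7, which has no count in cKO replicate 3. For Cd2 and Cd3e some of these places lie within counting error.

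The amplitude of these swings differed between genes. On the log2(CPM + 1) scale the highest and the lowest library differed by 1.03 for Cd3e, 1.05 for Cd2, 2.10 for Cd3g, 2.23 for Cd3d, 3.25 for Trdc and 7.51 for Nkg7. The median of this difference over tested genes averaging 10 CPM or more was 2.04. Ratios between members within a library moved as well. The counts of Trdc were 1.05, 0.766 and 0.261 times those of Cd3d in cKO and 0.909 and 0.355 times in WT. The counts of Cd3g were 6.04, 3.49 and 1.84 times those of Cd2 in cKO and 5.21 and 4.19 times in WT.

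Outside the lists, the genes closest to the summed profile of the 10 were Gtf2a1, Atg10, Uchl4, Saysd1 and Etf1. Closeness was measured as the root-mean-square difference of centred log2(CPM + 1) over the 5 libraries, among 7861 genes averaging 5 CPM or more. It was 0.0898 for Gtf2a1 and 0.168 for Etf1. Among the members it was 0.0968 for Cd3g, the main part of the sum, and 0.464 for Cd3e, 0.553 for Cd2, 0.610 for Trdc, 0.641 for Cd3d and 1.97 for Nkg7. Of the 7861 genes, 164 were closer to the sum than Cd3e was, 719 were closer than Cd3d and 6092 were closer than Nkg7.

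The comparison of genotypes called none of the T cell genes. Of the 10 members 7 passed the filter on low counts, 2 of them with positive and 5 with negative fold changes. Their median log2 fold change was -0.09, beside 0.06 over all 9988 tested genes. edgeR called 0 members at an adjusted p of 0.05 and 0% of all tested genes. Suz12, the targeted gene, was tested and not called either (log2 fold change -4.11, standard error 2.87, edgeR adjusted p = 0.999). The lack of a call for a T cell gene therefore does not show that its level was unchanged. At an unadjusted p under 0.05 stood 1 member, Cd3d, and 415 genes over the table. DESeq2 called 0 members, and 191 genes (1.91%) over the table. A fit with the replicate number as a block called 0 members and 1 gene (0.01%) over the table. Lck, Thy1 and Gzmb did not pass the filter.

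The separation of the genotypes depended on cKO replicate 1. Without that library 6 of the 10 genes (Cd3d, Cd3e, Cd3g, Trdc, Cd2 and Nkg7) lay lower in both remaining cKO libraries than in both WT libraries, as did 16.4% of the genes tested in that comparison. Cd3g then had a log2 fold change of -1.25 with an unadjusted edgeR p of 0.0151 and an adjusted p of 0.972. No member was called in that comparison either. For Cd2 and Cd3e the separation lay within counting error, since exact Poisson intervals of cKO and WT libraries overlapped.

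**Figure D5:**
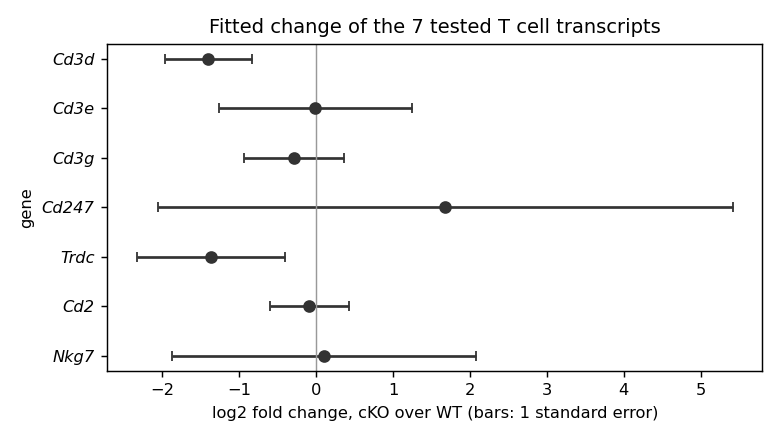
Log2 fold change (cKO over WT) of the 7 tested T cell genes from edgeR, with bars of 1 standard error. Cd3d at -1.40 and Trdc at -1.37 lie furthest below 0, and the bars of Cd247 and Nkg7 are the widest, at 3.73 and 1.97.

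Signalling genes downstream of the receptor were found in part. Of 16 listed genes 6 could be tested, 2 with positive and 4 with negative fold changes, none called, with a median of -0.88. Among the 16, 5 had no count in any library, and Zap70, the kinase that binds phosphorylated CD3 tails, had 2 counts in cKO replicate 1 and none elsewhere. Fyn, a Src family kinase that other cells also express, lay at 40.2, 64.2 and 37.8 CPM in cKO and at 8.79 and 21.8 CPM in WT. All cKO libraries lay above both WT libraries, as for 8.87% of tested genes, and the fitted log2 difference was 1.63 (standard error 0.83, edgeR adjusted p = 0.968). Lat, the adaptor phosphorylated by Zap70, lay at 0.688, 5.31 and 0 CPM in cKO and at 24.5 and 0 CPM in WT. Grap2, an adaptor that binds Lat and Lcp2, lay at 0.313, 7.65 and 25.9 CPM in cKO and at 32.1 and 10.02 CPM in WT. WT replicate 1 was the highest library for both adaptors. Trat1, a receptor-associated transmembrane adaptor, lay at 42.0, 4.11 and 0 CPM in cKO and at 45.9 and 9.90 CPM in WT.

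Of the 8 receptor segment genes on the list, 5 could be tested, all with negative fold changes and none called, with a median of -1.53. The fitted log2 difference of Trdv4 was -1.66 (standard error 1.61), and that of Trgc1 -0.51 (standard error 1.22, edgeR adjusted p = 0.999 each). Trbc1 had -3.24 and Trbc2 -1.53, with standard errors of 2.75 and 2.72. The 8 genes summed to 61.9, 27.65 and 44.4 CPM in cKO and to 98.8 and 85.5 CPM in WT. All cKO libraries lay below both WT libraries in this sum, but not without Trbc1 and Trbc2, which gave much of it in WT replicate 2. The other 6 genes summed to 45.5, 23.9 and 44.4 CPM in cKO and to 90.3 and 35.4 CPM in WT, and there the groups overlapped.

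Cytotoxic and NK-type genes were found in part. Of 12 listed genes 5 were tested, 2 with positive and 3 with negative fold changes, none called, with a median of -0.05. Xcl1, a chemokine of cytotoxic lymphocytes, lay at 155, 25.8 and 22.8 CPM in cKO and at 56.9 and 33.3 CPM in WT. Klrd1, which encodes the lectin-like receptor chain CD94, lay at 127, 58.3 and 18.1 CPM in cKO and at 99.7 and 81.1 CPM in WT. Both were highest in cKO replicate 1, next in WT replicate 1 and lowest in cKO replicate 3. Hcst, the signalling adaptor DAP10, lay at 65.2, 33.6 and 45.9 CPM in cKO and at 68.6 and 47.8 CPM in WT. Klrk1, the receptor NKG2D that signals through it, lay at 0, 7.29 and 17.8 CPM in cKO and at 13.0 and 0 CPM in WT. Gzma, Gzmc, Fasl and Ifng had no count in any library, and Prf1, perforin, had 337 counts in cKO replicate 2 and none elsewhere. cKO replicate 2, the deepest library, was thus the one with Prf1, Thy1, nearly all Lck and the most Cd247. Other libraries also held listed T cell genes found nowhere else. In WT replicate 1 alone were Skap1 (400 counts), Cd163l1 (203 counts) and Tcf7 (151 counts), and in cKO replicate 3 alone Cd6 (31 counts).

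Genes of epidermal and innate-like T cells gave 6 tested genes of 12, 4 with positive and 2 with negative fold changes, none called, with a median of 1.05. Il7r, the interleukin 7 receptor, lay at 257.5, 207.4 and 80.5 CPM in cKO and at 110.1 and 48.2 CPM in WT (log2 fold change 1.20, standard error 0.63, edgeR adjusted p = 0.992). Cd7 lay at 28.5, 86.4 and 61.0 CPM in cKO and at 91.5 and 49.5 CPM in WT. Jaml, an adhesion molecule of epithelial gamma delta T cells, lay at 20.6, 7.36 and 45.4 CPM in cKO and at 14.2 and 0 CPM in WT. Cd96 lay at 17.9, 13.6 and 0 CPM in cKO and at 0 and 0.118 CPM in WT. Of 8 T cell transcription factors 4 were tested, 3 with positive and 1 with a negative fold change and none called, with a median of 2.46. Gata3 lay at 29.6, 10.4 and 17.2 CPM in cKO and at 0.106 and 7.13 CPM in WT, again with all cKO libraries higher. Bcl11b, needed for T cell identity, lay at 0, 20.4 and 5.58 CPM in cKO and at 3.02 and 0 CPM in WT. Ets1 lay at 0.125, 0.106 and 33.4 CPM in cKO and at 1.11 and 0 CPM in WT, and Id3 at 24.3, 63.0 and 0 CPM in cKO and at 0 and 66.7 CPM in WT.

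Markers of other cells did not follow the T cell genes in one way. The 12 keratinocyte genes, led by Krt14, Krtdap and Lgals7, each had counts in at least 1 library and summed to 801.5, 1132 and 1007 CPM in cKO and to 321 and 737 CPM in WT. WT replicate 1, with the second highest T cell sum, was the lowest library for keratinocytes. The 6 melanocyte genes, led by Dct, Pmel and Mlana, summed to 49.7, 33.1 and 145 CPM in cKO and to 39.6 and 429 CPM in WT. The 8 genes listed for alpha beta T cells, which include Trbc1 and Trbc2, had Cd8b1 and Foxp3 at 0 throughout. They summed to 0 to 39.1 CPM in cKO and to 8.63 and 50.6 CPM in WT. Of 6 NK cell genes Ncr1, Klra8 and Eomes were at 0 in every library, and the list summed to 14.6 to 62.5 CPM in cKO and to 23.1 and 30.7 CPM in WT, nearly all from Klre1 and Klrb1c. Of 6 B cell genes Cd79a, Cd79b, Ms4a1 and Pax5 had no count in any library, while Ighm lay at 234.5 to 279.5 CPM in cKO and at 268 and 278 CPM in WT. Of 6 mast cell genes Cpa3, Mcpt4, Tpsb2 and Fcer1a were at 0, and the list summed to at most 5.81 CPM. The part of these cells in the T cell values was not tested.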

How the data were processed

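Messenger RNA was sequenced from 5000 purified Langerhans cells per library, with an ultra-low-input kit, in 3 cKO and 2 wild type libraries. The authors deposited raw counts per gene with a gene length, as a series table and as a file per sample; the 5 files held the same counts as the table. The submitters' processing notes name featureCounts and mm10. Not given in the sources used here were the aligner, the versions, the use of strand and how reads matching more than 1 gene were handled. No molecular identifiers are described, so intervals and floors cover counting error only.

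Symbols came from RefSeq (GRCm38.p6, the same coordinates as mm10), which named 25275 of 27179 identifiers. All 118 symbols of the lists were matched, 4 of them by an older symbol. The test was edgeR 4.0.16 in R 4.3.3 with filterByExpr (minimum count 10), TMM scaling and the quasi-likelihood F test (robust, legacy setting). P-values were adjusted by Benjamini-Hochberg over all genes tested, at a threshold of 0.05. The fit was tested on simulated counts. Fold changes are cKO over wild type, and a standard error is the fold change's size over the square root of F. CPM are counts per 1000000 of effective library size. Intervals are 95% exact Poisson.

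The members and lists were chosen with earlier results of these data known. All members were named, and in each T cell list up to 4 tested genes with the smallest p; in marker lists the 3 most abundant and those at 0. Some genes that this rule names are not reported here. The receptor segments beyond the fixed list, Pou2f1, Il10, Trat1, Zap70, Cd28, Cd8a, Prf1, Skap1, Cd163l1, Tcf7, Cd6 and the cytotoxic genes at 0 were chosen after their values were seen. Alternatives were DESeq2 1.42.0, limma-voom (limma 3.58.1), other factors and filters, a replicate block, a non-robust fit, the title style (LC or Langerhans-cell) as a term, each library left out and edgeR without its legacy setting, the last chosen after seeing the data, as was the segment sum without beta genes. Windows of read length were compared with GENCODE transcripts (mouse release on GRCm38) by blastn. Figures were drawn with matplotlib 3.10.9.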

Additional observations from a re-analysis of the deposited data

How the results depend on the processing

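The comparison of genotypes called 0 genes with the main settings, 1 gene with the replicate block (Il10, no T cell gene) and 191 with DESeq2. It called 0 with any 1 library left out. No member and no gene of the other T cell lists was called under any of the 15 alternatives. Same-numbered libraries did not deviate together (correlation of deviations -0.0227 for number 1 and -0.00111 for number 2), so the numbers were not taken as pairs. Cd3d and Trdc kept their direction under all 15 alternatives, from -1.69 to -1.03 and from -2.19 to -0.04. Directions of the others turned in some. Cd3e turned to 0.18 with the replicate block, and it ranged from -0.33 to 0.21 over the libraries left out. Over these, Cd3g ranged from -1.25 to 0.04, Cd2 from -0.34 to 0.15, Nkg7 from -2.52 to 0.67 and Cd247 from 0.73 to 8.64, with no value for Cd247 without cKO replicate 2. With limma-voom, Nkg7 came to -4.29 and Cd247 to -1.08, and with the title style as a term Nkg7 came to -3.62. The cause was not tested. The log2 ratio of the summed level stayed below 0 under its 11 alternatives, and ranged from -1.24 without cKO replicate 1 to -0.06 without cKO replicate 3. Members with separate groups numbered 1 with all libraries, 6 without cKO replicate 1 and 2 each without cKO replicate 3 and without WT replicate 2. Among the 6, Cd2 and Cd3e were separate by differences within counting error. Counting error alone limits detection to 0.106 to 0.258 CPM. Only 82.7% of tested genes averaging 10 CPM or more had a count in every library, so a 0 need not mean absence.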
